A study of Mus musculus with 2 samples.

Results

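The genes described here are 10 genes of iron storage, uptake, export and control in the mouse uterus, chosen by name from the 14678 genes of the deposited table. All 10 had a row. They are the ferritin chains Fth1 and Ftl1, the uptake genes Tfrc, Trf and Slc11a2, the export genes Slc40a1 and Cp, the heme oxygenase Hmox1, and the iron regulatory proteins Aco1 and Ireb2. Both libraries came from mice with 2 engineered alleles, written VEGFtetO/tetO/beta-AKtg/wt, in which tet operator sequences sit in the promoter of the VEGF gene and a tetR-Krab repressor is expressed from the β-actin promoter. The Dox+ females ate doxycycline chow, which releases the repressor, and are labelled VEGF-normal (wild type), although they carry both alleles. The Dox- females, littermates taken off doxycycline, ate chow without it and are labelled VEGF-repression. The groups therefore differ in the drug as well as in VEGF, and the effects of these cannot be told apart. The study also reports lower ovulation and pregnancy in Dox- females, which these libraries cannot separate from the other differences. Uteri were taken at gestation day 2.5, before implantation, RNA of 3 uteri was pooled for each condition, and 1 digital gene expression library was sequenced from each pool. With 1 library per condition no difference has a replicate check, and the intervals given below cover counting error only.

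Cells take up iron mainly by endocytosis of iron-loaded transferrin with its receptor, reduce it in the endosome and pass it to the cytosol through a divalent metal transporter. Surplus iron is stored inside ferritin shells of heavy and light chains or leaves through ferroportin, and ferroxidases in plasma or on the cell surface then oxidise it for binding to transferrin. The iron regulatory proteins tie these steps together. In iron-poor cells they bind hairpins called iron-responsive elements, where binding in a 5′ UTR holds back translation and binding in a 3′ UTR protects the mRNA from decay. The uterus before implantation secretes iron-binding proteins and is under steroid control.

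Annotated mouse transcripts were searched for the core of an iron-responsive element, a CAGTGN loop between 5 paired bases on each side with an unpaired C before the stem, on the transcript strand. Transcripts of 4 of the 10 genes held it, against 279 of 22611 genes overall (1.23%). A match in the 5′ UTR was found in 33 genes (0.146%) and a match in the 3′ UTR in 124 genes (0.548%). A match in the coding sequence was found in 139 genes, and a gene can count in more than 1 region. The 10 genes were chosen by name for roles in iron handling, so these shares are given as setting and not as a test. The windows are shown because the known control differs between a 5′ and a 3′ UTR hairpin. Capitals mark the 6 loop bases.
Fth1, 5′ UTR, exon 1: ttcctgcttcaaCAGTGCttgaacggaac
Ftl1, 5′ UTR, exon 1: gtcttgcttcaaCAGTGTttgaacggaac
Slc40a1, 5′ UTR, exon 1: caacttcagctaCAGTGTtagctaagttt
Tfrc, 3′ UTR, exon 19, match 1: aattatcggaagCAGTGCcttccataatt
Tfrc, 3′ UTR, exon 19, match 2: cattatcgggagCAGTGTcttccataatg
Tfrc, 3′ UTR, exon 19, match 3: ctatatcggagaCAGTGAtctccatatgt
Tfrc, 3′ UTR, exon 19, match 4: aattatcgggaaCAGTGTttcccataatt

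On NCBIM37, the assembly called mm9, these windows lie at chr19:10057222-10057250 on the plus strand for Fth1, chr7:52715149-52715177 on the minus strand for Ftl1 and chr1:45982310-45982338 on the minus strand for Slc40a1. The 4 Tfrc windows lie on the plus strand at chr16:32631305-32631333, chr16:32631684-32631712, chr16:32631749-32631777 and chr16:32631796-32631824. Trf, Slc11a2, Hmox1, Aco1, Ireb2 and Cp had no match to this strict pattern. The search misses elements with another loop or a broken stem, so this does not show that these genes lack one. Of the genes past the filter described below, 116 held a match in any region, coding sequence included. Of these, 20 were past 1.5-fold higher in Dox- and 20 past 1.5-fold lower. Of all 6547 genes past the filter, 15.2% were past it higher and 14.7% lower.

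The Dox+ library held 5985925 clean tags and the Dox- library 5844314, of which 4437506 and 4218459 were counted over genes. Vegfa, the repressed gene, had 247 copies in Dox+ and 125 in Dox-, 1.93-fold lower (95% interval 1.55 to 2.41). A copy is a tag assigned to the gene, and fold changes are ratios of the share of clean tags. The 6547 genes with at least 200 combined copies were compared at a fold of 1.5. Of these, 29.9% were past 1.5-fold, 15.2% higher and 14.7% lower in Dox-, and the median log2 ratio was 0.035. Of the iron genes, 9 passed the filter and Hmox1, with 156 combined copies, did not.

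Among those 9 genes, 3 were past 1.5-fold higher in Dox- and 1 was past it lower, and 5 were between. The ferroportin gene Slc40a1, the ceruloplasmin gene Cp and the transferrin receptor gene Tfrc were higher, by 5.67-fold, 3.65-fold and 2.92-fold. The transferrin gene Trf was lower by 1.58-fold. The ferritin genes, with by far the most copies, differed by 1.21-fold or less. Over the 9 genes the median log2 ratio was 0.074, beside 0.035 over all compared genes. The higher genes were 33.3% of the 9, beside 15.2% of all compared genes, and the lower gene 11.1%, beside 14.7%. A list of 9 genes is too short for these shares to be read as a property of the list.

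**Figure D1:**
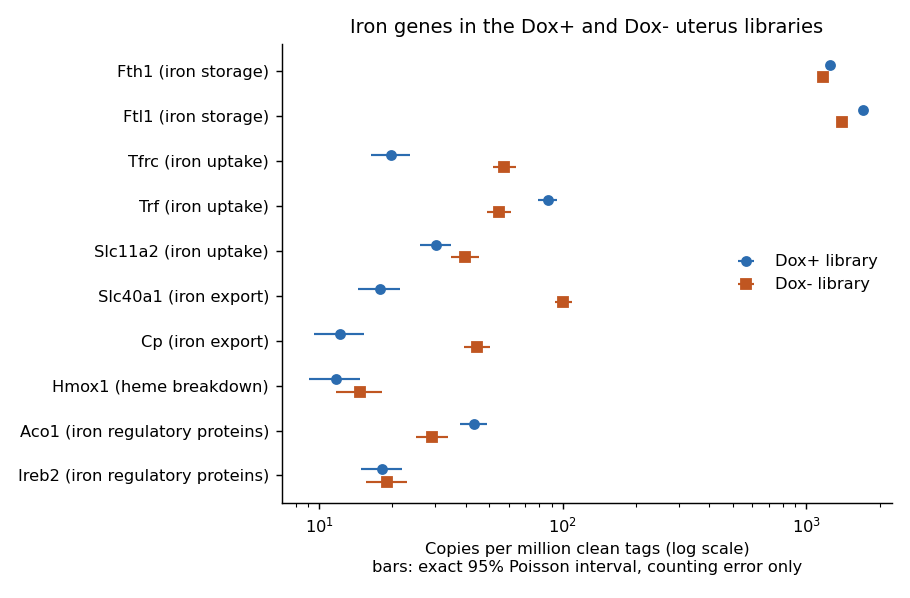
Level in TPM (copies per 1000000 clean tags) of the 10 iron genes (horizontal log axis) in the Dox+ library (circles) and the Dox- library (squares), with exact 95% Poisson intervals for counting error. The intervals of Slc40a1, Cp and Tfrc are apart with Dox- higher, those of Trf, Aco1, Ftl1 and Fth1 are apart with Dox+ higher, those of Slc11a2 are barely apart, and those of Ireb2 and Hmox1 overlap.

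Ferritin stores iron in a shell whose heavy chain oxidises iron and whose light chain helps to form the mineral core. Fth1 (chromosome 19, 10057193 to 10059582) had 7463 copies in Dox+ and 6831 in Dox-, or 1247 and 1169 TPM, the copies per 1000000 clean tags. Its log2 ratio was -0.09 (95% interval -0.14 to -0.05). The difference is thus beyond counting error and small, since 86.8% of the compared genes had a log2 ratio at least as far from 0. Ftl1 (chromosome 7, 52713314 to 52715254) had 10178 copies in Dox+ and 8199 in Dox-, 1.21-fold lower (1.18 to 1.25), with 61.7% of genes at least as far from 0. Both chains therefore had fewer copies in the Dox- library, and neither passed the fold.

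The difference was smaller for the heavy chain than for the light chain. The ratio of Fth1 to Ftl1 copies within a library, which does not depend on library size, was 0.733 (95% interval 0.712 to 0.756) in Dox+ and 0.833 (0.807 to 0.860) in Dox-. The intervals do not overlap. Ferritin tags made up 92.5% (exact Clopper-Pearson interval 92.1 to 92.9) of the tags of the 10 genes in Dox+ and 87.7% (87.2 to 88.2) in Dox-. The mouse genome holds copies of ferritin genes, and tags matching more than 1 gene were left out by the study, so that the ferritin counts are uncertain to that extent. Ftl2, a pseudogene of the light chain in the annotation, had a row of its own with 20 copies in Dox+ and 14 in Dox-.

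The genes of the transferrin route went opposite ways. Tfrc (chromosome 16, 32609006 to 32632880), whose product carries iron-loaded transferrin into the cell, had 118 copies in Dox+ and 336 in Dox-, or 19.7 and 57.5 TPM. The rise was 2.92-fold (95% interval 2.36 to 3.63), and 97 of the 6547 genes (1.48%) had a ratio at least as high. Trf (chromosome 9, 103106331 to 103132774) encodes transferrin, the carrier of iron in plasma and in some secretions. It had 519 copies in Dox+ and 321 in Dox-, and fell 1.58-fold (1.37 to 1.82). Its interval reaches below 1.5-fold, and 12.5% of genes had a ratio at least as low. The ratio of receptor to transferrin copies was 0.227 (0.185 to 0.278) in Dox+ and 1.05 (0.896 to 1.22) in Dox-.

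Slc11a2 encodes DMT1, the transporter that moves ferrous iron out of endosomes and across the gut wall. The gene (chromosome 15, 100218329 to 100255503) had 180 copies in Dox+ and 233 in Dox-. The ratio of 1.33 (95% interval 1.09 to 1.62) was beyond counting error and not past 1.5-fold. It lay between the values of Trf and Tfrc, and 24.3% of genes had a ratio at least as high.

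Both export genes were higher in Dox-. Slc40a1 (chromosome 1, 45964915 to 45982439) encodes ferroportin, the iron exporter of mammalian cells. It had 106 copies in Dox+ and 587 in Dox-, or 17.7 and 100.4 TPM. The ratio was 5.67 (95% interval 4.6 to 7.04), and 31 of the 6547 genes (0.473%) had one at least as high. Of the 10 iron genes it had the highest ratio, and its interval overlapped that of Cp (2.80 to 4.80) at its lower end. Cp (chromosome 3, 19857054 to 19909145) encodes ceruloplasmin, a copper ferroxidase that oxidises exported iron. It had 73 copies in Dox+ and 260 in Dox-, 12.2 and 44.5 TPM, and 1.05% of genes had a ratio at least as high.

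The importer and the exporter were thus both higher, by unequal amounts. The ratio of Slc40a1 to Tfrc copies was 0.898 (95% interval 0.684 to 1.18) in Dox+ and 1.75 (1.53 to 2.0) in Dox-. Of the 4 genes with a match printed above, Tfrc with its 3′ UTR matches and Slc40a1 with its 5′ UTR match rose past the fold. Fth1 and Ftl1 with 5′ UTR matches did not pass it. Copy numbers measure mRNA and not its translation.

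**Figure D2:**
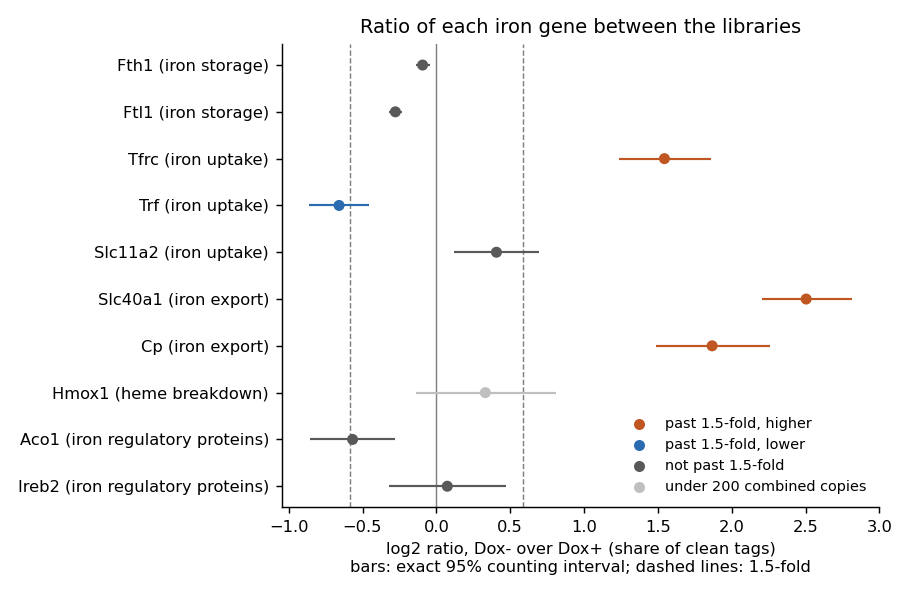
Log2 ratio of each iron gene, Dox- over Dox+ (horizontal axis), with exact 95% counting intervals and dashed lines at 1.5-fold. Slc40a1 at 2.50, Cp at 1.87 and Tfrc at 1.54 lie wholly beyond the upper line, while the interval of Trf crosses the lower line.

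Hmox1 encodes the inducible heme oxygenase, which frees iron from heme. The gene (chromosome 8, 77617490 to 77624495) had 70 copies in Dox+ and 86 in Dox-, a ratio of 1.26 (95% interval 0.907 to 1.75). At this depth no difference was detectable, and a change of up to 1.75-fold is within the interval.

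The iron regulatory proteins are the sensors that bind the hairpins. Aco1, the gene of the first of them, which acts as a cytosolic aconitase when it carries an iron-sulfur cluster (chromosome 4, 40090114 to 40146042), had 258 copies in Dox+ and 170 in Dox-, 1.48-fold lower (95% interval 1.22 to 1.81) and just short of the fold. Ireb2, the gene of the second (chromosome 9, 54711562 to 54760341), had 108 copies in Dox+ and 111 in Dox-, a ratio of 1.05 (0.80 to 1.38). The ratio of Aco1 to Ireb2 copies was 2.39 (1.90 to 3.02) in Dox+ and 1.53 (1.2 to 1.96) in Dox-, with intervals that overlap slightly. With the libraries scaled by TMM or by the median of ratios, Aco1 was past 1.5-fold lower, and it also passed a cutoff of an absolute log2 ratio above 0.5.

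The study's methods describe tag profiling, where a transcript yields 1 tag, so that levels of different genes compare by TPM. In Dox+ the order was Ftl1 (1700), Fth1 (1247), Trf (86.7), Aco1 (43.1), Slc11a2 (30.1) and Tfrc (19.7). Ireb2 (18.0), Slc40a1 (17.7), Cp (12.2) and Hmox1 (11.7) followed. In Dox- Slc40a1 (100.4) came next after the ferritin chains, above Tfrc (57.5) and Trf (54.9). Because the labels describe mRNA fragmentation, levels were also divided by the length of the longest annotated coding transcript, in TPM per kb. In Dox+ the level of Ftl1 was 1757 and that of Fth1 1440 on this scale, and the next level was that of Trf at 28.6. Aco1 was at 9.91, Hmox1 at 7.28, Slc11a2 at 6.81, Slc40a1 at 5.24, Tfrc at 4.03, Ireb2 at 3.11 and Cp at 2.67. In Dox- the level of Slc40a1, 29.7, came next after the ferritin chains and above that of Trf at 18.1, followed by Tfrc at 11.8 and Cp at 9.75. If each transcript yields 1 tag, the level does not grow with length and the order by TPM applies instead of this one. On both scales Slc40a1 stands above Trf in Dox- and below it in Dox+.

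**Figure D3:**
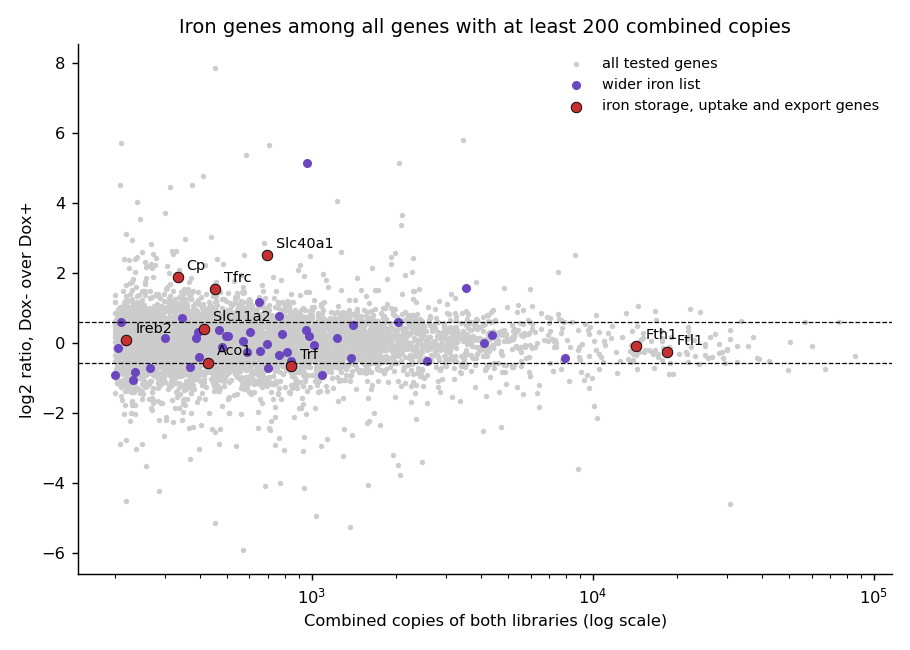
Log2 ratio, Dox- over Dox+ (vertical axis), against combined copies (horizontal log axis) for the 6547 compared genes (grey), the wider iron list (purple) and the 9 compared iron genes (red, named), with dashed lines at 1.5-fold. Slc40a1, Cp and Tfrc lie above most genes with similar copies, and Fth1 and Ftl1 lie near 0 at the right.

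A hand-written list of 77 further genes of iron and heme metabolism gave the setting. Of these, 68 were in the table, 42 had at least 200 combined copies, 7 were past 1.5-fold higher in Dox-, 7 past it lower and 28 neither. These shares, 16.7% each, stand beside 15.2% and 14.7% of all genes, and the median log2 ratio of 0.018 beside 0.035. The counts in both directions were equal, and both shares were close to the background. The sub-lists and marker lists that follow are short, and their counts are not read as a property of a step or cell type.

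Around the transferrin cycle, Steap3, the endosomal ferrireductase that acts between Tfrc and Slc11a2, rose from 286 to 479 copies, 1.72-fold (95% interval 1.48 to 1.99). Slc39a14, a transporter of zinc and of iron not bound to transferrin, had 448 copies in Dox+ and 366 in Dox-. Other members of the STEAP family were under the filter, with Steap2 at 37 and 149 copies, Steap1 at 7 and 40 and Steap4 at 105 and 12.

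Of the 3 compared genes of ferritin loading and turnover and the 3 of iron regulatory protein control, 1 each was past the fold, both lower. Of all compared genes, 14.7% were past it lower. Ncoa4, the receptor that carries ferritin to the lysosome, fell from 438 to 258 copies, 1.66-fold (1.42 to 1.94). The iron chaperone Pcbp1 had 2040 and 2332 copies and Pcbp2 4637 and 3339, neither past the fold. Fbxl5, the iron-sensing ubiquitin ligase subunit that marks IRP2 for breakdown, fell from 718 to 370 copies, 1.89-fold (1.67 to 2.15).

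The membrane ferroxidase Heph went the other way from Cp. Heph fell from 151 to 83 copies, 1.78-fold (1.35 to 2.35). The ratio of Cp to Heph copies was 0.483 (0.360 to 0.643) in Dox+ and 3.13 (2.44 to 4.06) in Dox-. Hamp and Hamp2, the hepcidin genes, had no row in the table, and the co-receptor gene Neo1 had 324 and 262 copies.

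In heme synthesis, 2 of 6 compared genes were past the fold, both higher, beside 15.2% of all compared genes. Cpox, coproporphyrinogen oxidase, rose from 202 to 446 copies, 2.26-fold (1.91 to 2.68), and Alad, an early enzyme of the pathway, rose from 132 to 212, 1.64-fold (1.32 to 2.06). Ferrochelatase, Fech, which inserts the iron, had 434 and 332 copies. In heme breakdown, the biliverdin reductase gene Blvra fell from 229 to 139 copies, 1.61-fold (1.30 to 2.0). Lrp1, a receptor for hemopexin among other ligands, had 585 and 812 copies and Pgrmc1, a heme-binding membrane protein, 800 and 573, neither past the fold.

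Among the genes with at least 200 combined copies, the secreted iron binders Lcn2 and Ltf had the highest ratios of the list. Lcn2, lipocalin 2, which binds iron-carrying siderophores, rose from 27 to 935 copies, 35.5-fold (24.2 to 54.1). Ltf, lactoferrin, a transferrin relative secreted by the estrogen-stimulated mouse uterus, rose from 905 to 2639 copies, 2.99-fold (2.77 to 3.22). Slc22a17, the receptor gene of lipocalin 2, fell from 132 to 68 copies, 1.90-fold (1.40 to 2.58).

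Iron-sulfur cluster genes had 1 gene past the fold in each direction in both the mitochondrial and the cytosolic sub-list. Of all compared genes, 15.2% were past it higher and 14.7% lower. Of 8 compared mitochondrial genes, Isca1 was just past the fold, with 85 and 125 copies, and Hscb, a co-chaperone of cluster transfer, fell from 158 to 74, 2.08-fold (1.57 to 2.79). Hspa9, the chaperone it serves, had 2077 and 2022 copies, and Fdx1, a ferredoxin, 272 and 330. Of 7 cytosolic genes, Fam96a was just past the fold, with 822 and 1206 copies, Narfl fell from 166 to 99 copies, 1.64-fold (1.27 to 2.12), and Fam96b had 465 and 514.

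**Figure D4:**
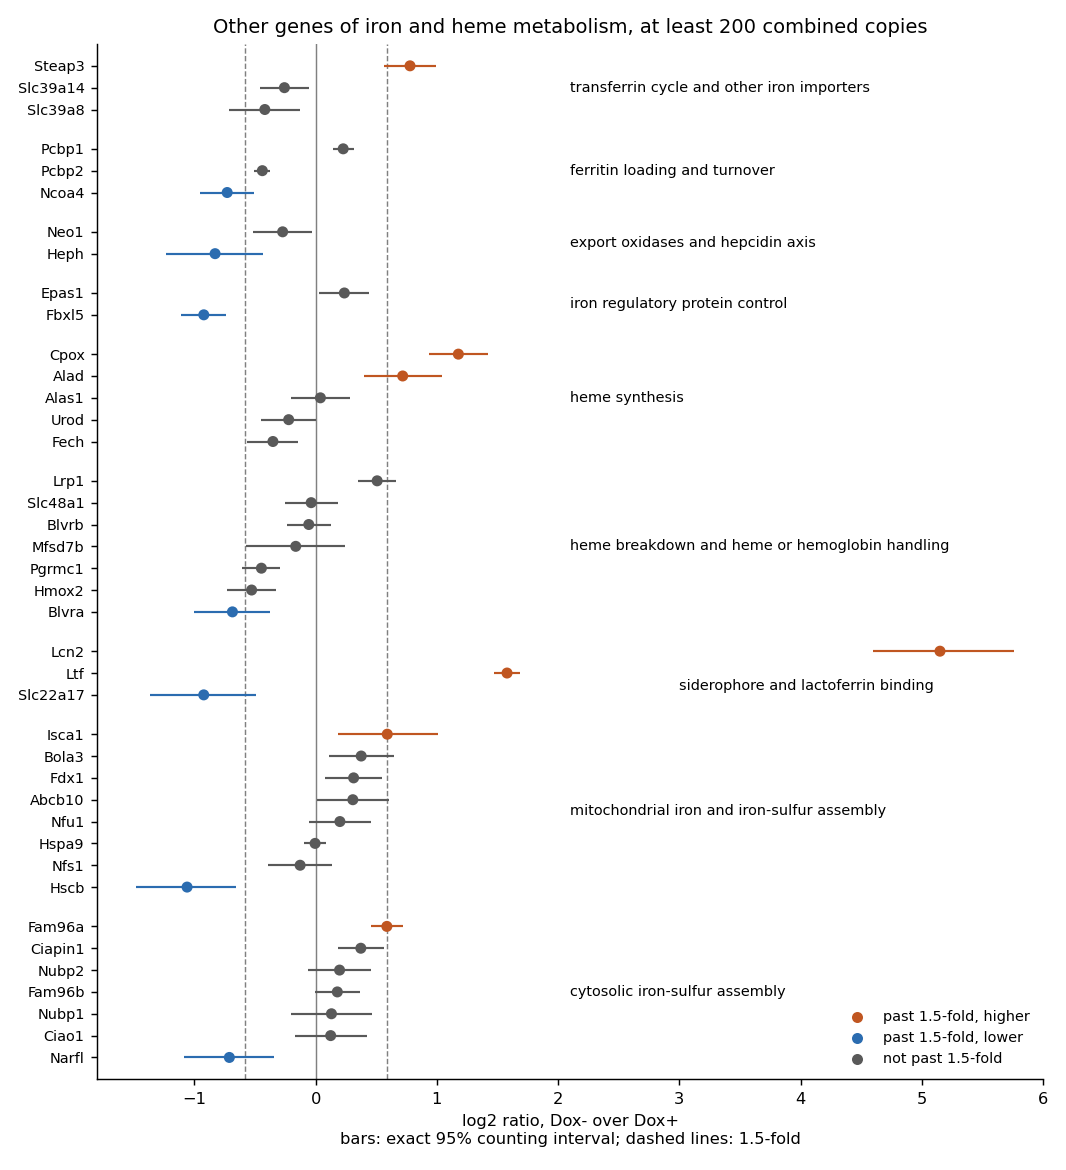
Log2 ratio, Dox- over Dox+, of compared genes of the wider iron list (horizontal axis), grouped by role and without those not reported here, with exact 95% counting intervals and dashed lines at 1.5-fold. Lcn2 at 5.15, Ltf at 1.58 and Cpox at 1.18 are the highest, and Hscb at -1.06 is the lowest.

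Several markers of cell types that the uterus holds also differed between the libraries. In a bulk library a change in the number of cells and a change in marker RNA per cell cannot be told apart. The 3 of 6 neutrophil markers in the table summed to 7.02 TPM in Dox+ and 37.0 in Dox-, none with 200 combined copies. In copies they were S100a8 at 24 and 98, S100a9 at 9 and 71 and Mpo at 9 and 47, while Elane, Ngp and Camp had no row. Neutrophil granules also hold lactoferrin and lipocalin 2. The 4 of 7 erythroid and blood markers in the table summed to 11.0 and 35.6 TPM, with Hba-a1 at 26 and 114 and Hba-a2 at 19 and 82, while Alas2 had 21 and 9 and Hbb-b2 0 and 3. Tags matching more than 1 gene were left out here too, which limits the counts of the globin genes. Macrophages, which recycle iron through ferroportin, had 8 of 8 markers in the table with sums of 271 and 293 TPM, and of the 4 with enough copies 1, Mrc1, was past the fold at 163 and 241. Of 6 compared epithelial markers 2 were past the fold, Krt7 at 179 and 600 copies and Epcam at 467 and 821, and the sums of all 7 were 826 and 1154 TPM. The other 4 compared, Krt8, Krt18, Krt19 and Cdh1, had ratios of 1.14, 1.30, 1.35 and 1.32. Beside these macrophage and epithelial counts, 15.2% of all compared genes were past the fold higher.

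Stromal, muscle and endothelial markers were lower in sum. The 7 stromal markers summed to 1760 TPM in Dox+ and 935 in Dox-, with 4 past the fold lower (Hand2, Hoxa10, Hoxa11 and Vim) and 2 higher (Pgr and Esr1). Of all compared genes, 14.7% were past it lower and 15.2% higher. Most of the stromal sum came from Hoxa10 (521 and 181 TPM), Hoxa11 (430 and 134) and Vim (436 and 287). Pdgfra (65.8 and 48.9 TPM) was not past the fold. The 6 smooth muscle markers summed to 6215 and 4333 TPM, and the 6 endothelial markers to 181 and 120. The endothelial markers did not all go 1 way. Cdh5 (446 and 216 copies) and Tie1 (191 and 100) were past the fold lower, while Pecam1 (243 and 253) was not past it. Under the filter, Tek (87 and 51) and Emcn (108 and 64) were lower and Kdr (10 and 17) was higher. Of the 4 hepatocyte markers, checked because the liver makes most plasma transferrin and ceruloplasmin, Alb, Apoa1 and Serpina1a had no row while Ttr was at 47 copies in the Dox+ library and at 0 in the other. The part of these cell types in the values of Slc40a1, Cp, Tfrc, Trf, Lcn2 and Ltf was not tested.

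**Figure D5:**
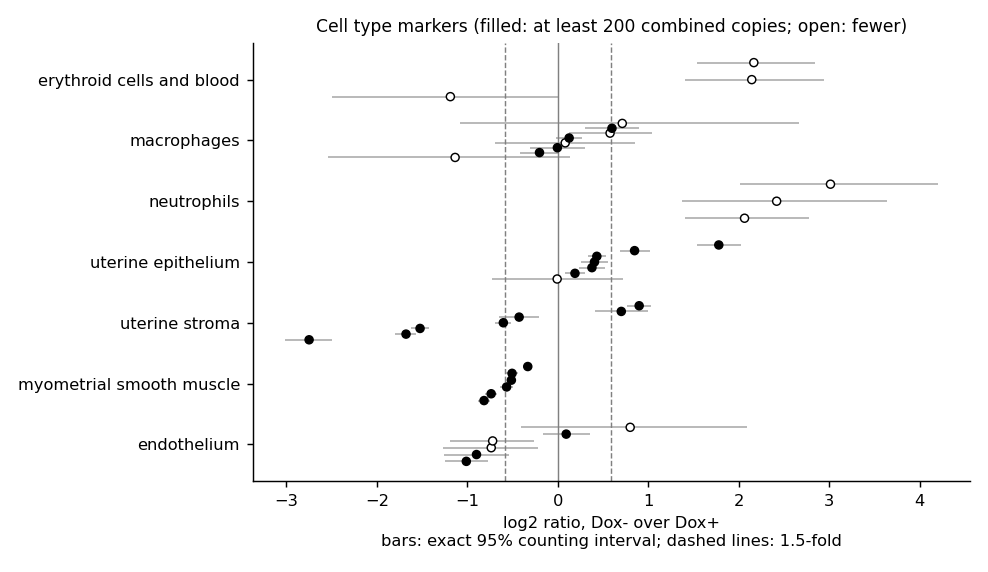
Log2 ratio, Dox- over Dox+ (horizontal axis), of cell type markers with at least 1 copy in both libraries, by cell type, with exact 95% counting intervals. Filled points have at least 200 combined copies and open points fewer, and the dashed lines mark 1.5-fold. Hbb-b2 and Ttr, at 0 in one library, are not drawn, and the 3 neutrophil markers and both alpha-globin genes lie above 2.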

How the data were processed

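Total RNA of 3 pooled uteri per condition at gestation day 2.5 was profiled by digital gene expression in 1 Dox+ and 1 Dox- library. The deposited counts are the copies the authors assigned to each gene from unambiguous clean tags, after removing adaptor-only tags, low quality tags and tags with fewer than 2 copies. They aligned the tags to mouse reference mRNA of mm9. The submitters' processing notes name CASAVA, and the aligner is not given in the sources used here. The deposited TPM scales these copies to 1000000 clean tags and ignores transcript length; a gene without a tag has 0.01. The labels describe mRNA fragmentation while the methods describe tags, which was not resolved. Another 5 columns hold the authors' ratios, log2 ratio, P-value and FDR, and were not used.

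Library sizes of 5985925 and 5844314 clean tags were recovered from the deposited copies and TPM, and they give all 14050 and 13948 values of genes with a tag. Ratios have exact Clopper-Pearson intervals at 95%, and levels exact Poisson intervals. Genes with at least 200 combined copies were compared at a fold of 1.5. The study's text gives this fold and also an absolute log2 ratio above 0.5, which was run as an alternative. Over all genes this alternative called 1231 higher and 1168 lower, close to the counts that the study reports. The fold of 1.5 called 994 and 961. Since each condition has 1 library, conditions were not tested against each other. The members and lists were chosen with earlier results of these data known. All 10 members are named, and of the wider list those past the fold and the 2 with most copies in each sub-list, some of which are not reported here. Other genes named from the wider list and the ratios between genes within a library were added after their values were seen. No gene was named for a like pattern, since 2 libraries give 1 ratio per gene. Positions, lengths and hairpin sequences are from GENCODE transcripts on NCBIM37 (mm9), where G-T pairs were allowed in the stem. The computation of intervals and calls was checked on simulated counts that held counting error only. That check says nothing about variation between pools. Python 3.11.15, numpy 2.4.6, scipy 1.17.1, pandas 2.3.3, matplotlib 3.10.9, R 4.3.3 and edgeR 4.0.16 (for TMM factors) were used.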

Additional observations from a re-analysis of the deposited data

How the results depend on the processing

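The calls of Slc40a1, Cp and Tfrc as higher held under every alternative run for them: other library sizes (counted tags, TMM, median of ratios), no filter, a filter of 100 combined copies, a fold of 2, an absolute log2 ratio above 0.5, and the whole counting interval past 1.5-fold. Trf was no longer past the fold at a fold of 2 or when its whole interval had to be past 1.5-fold, which left 3 genes. With TMM, the median of ratios or the log2 ratio above 0.5, Aco1 was added, giving 5. All 40 log2 ratios of the 10 genes under other library sizes or with 1 copy added stayed inside the counting interval and kept their sign. Of the wider list, 14 genes were past the fold. There were 33 with no filter and 24 from 100 combined copies, where more genes were compared, and 4 at a fold of 2 and 5 by the whole interval, where the criterion is stricter. The median log2 ratio of the list lay between -0.05 and 0.06 under all scalings and filters. TMM and the median of ratios left 5 higher and 7 lower. Over all genes the largest of these shifts in the median log2 ratio was to 0.073, with counted tags. The variation between pools of uteri cannot be estimated from 1 library per condition, and it is not part of any interval. No paired analysis was possible because each condition has 1 library.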

Other observations

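The table's GO column assigns 102 genes to iron ion binding, of which 91 are in neither the 10 iron genes nor the wider list. This list was taken after the data were seen. Of these 91 genes, 34 had at least 200 combined copies, 5 were past 1.5-fold higher in Dox- and 6 past it lower, with a median log2 ratio of 0.098. These shares, 14.7% and 17.6%, are close to the 15.2% and 14.7% of all compared genes, so the genes are given as values only. The 5 higher genes were Cyba with 112 copies in Dox+ and 212 in Dox-, Cybb with 148 and 226, the catalase gene Cat with 114 and 168, Srprb with 316 and 612 and Trappc6b with 125 and 214. Of the 6 lower genes, Ptgs1, cyclooxygenase 1, had 425 and 230 copies, the prostacyclin synthase gene Ptgis 522 and 193, and the thromboxane synthase gene Tbxas1 286 and 122. Cdo1, the iron-dependent cysteine dioxygenase, had 655 copies in Dox+ and 84 in Dox-, 7.61-fold lower. Pxdn and Abcb6 had 783 and 503 copies and 231 and 124 copies.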
